A study of Mus musculus with 12 samples.

Results

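The comparison asked, gene by gene, whether RNA changed more or less in tagged ribosomes than in an isotype control pull-down of the same tissue. The change ran from naive muscularis to muscularis taken 3 h after surgery, and the tag was aimed at enteric glial cells (EGCs). The comparison used all 12 libraries of the series, every one of the 12 deposited columns of the counts table. It took the difference of differences, the HA minus IgG difference at T3 less the HA minus IgG difference at T0. Of 12975 genes in the table, 10314 held enough counts to be tested.

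The mice carried PLP-CreERT2 and Rpl22HA, so that tamoxifen switched a ribosomal protein to an HA-tagged form in cells in which this Cre is active. They received 2 intraperitoneal injections of 100 µl tamoxifen at 15 mg/ml from 10 to 12 weeks of age and were sacrificed 3 to 4 weeks after the first injection. The 3 naive animals (T0, numbers 1, 2 and 4) were compared with the 3 animals taken 3 h after intestinal manipulation (T3, numbers 1, 3 and 4), in which the small bowel is handled during surgery and its muscle layer becomes inflamed. The small intestine was stripped of mucosa and submucosa, and each cleared homogenate was divided between an anti-HA antibody and mouse IgG1, so that each animal gave 1 HA and 1 IgG library. All 4 groups (HA T0, HA T3, IgG T0 and IgG T3, 3 libraries each) shared the transgenes and the tamoxifen, the T0 and T3 animals were different mice, and the tag marked whichever cells recombined.

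In the RiboTag system an antibody against HA precipitates tagged ribosomes together with the mRNA they carry, and the IgG pull-down collects RNA that sticks without the tag. EGCs surround the neurons of the myenteric plexus, support neurotransmission and respond to injury with changes in cytoskeleton, secreted factors and inflammatory mediators. A gene that rises in all cells of the tissue can rise equally in both pull-downs. In these bulk samples, fewer cells of a type and less RNA per cell cannot be told apart.

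The HA libraries held 1221788 to 2870591 counts, the IgG T0 libraries 388214 to 1289833 and the IgG T3 libraries 88136 to 248522, so IgG T3 was the shallowest group. Levels are given in CPM, counts scaled by library size after TMM correction. The label of the pull-down held against its markers: over the 22 glia markers tested the median HA minus IgG difference was 3.62 on the log2 scale at T0 and 3.15 at T3. Markers of interstitial cells of Cajal (ICC), the pacemaker cells of the gut, were also higher in HA, with a median of 3.41 at T0 over the 7 tested. The summed CPM of the glia markers was 9154, 7664 and 8634 in HA T0, 17684, 17537 and 17370 in HA T3 and 1302, 1170 and 1344 in IgG T0. In IgG T3 it was 2870, 2591 and 1233 in animals 1, 3 and 4, so IgG T3 animals 1 and 3 held a higher level of glial RNA than any IgG T0 library while animal 4 did not.

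A different change in HA and IgG was found for 158 genes (edgeR quasi-likelihood test with the animal as a block, Benjamini-Hochberg adjusted p under 0.05). It was more positive in HA for 133 genes, 1.29% of those tested, and more negative in HA for 25 genes, 0.242%. The unadjusted p was under 0.05 for 1248 genes. Differences of the 133 genes ran from 1.14 to 3.59 with a median of 1.80 (log2, genes with a group at the detection floor left out of the upper end), and those of the 25 genes from -1.19 to -3.78 with a median of -1.92, against a median of 0.18 over all genes tested. The within-animal HA minus IgG differences of the 3 T3 animals did not overlap those of the 3 T0 animals for 129 of the 133 and 19 of the 25 genes. Over all genes tested, 14.5% were separated upwards and 4.62% downwards. The 2 shallowest IgG T3 libraries, animals 1 and 3, both lay below animal 4 for 66 of the 133 genes, where 33.2% of all genes tested had that order, and without these 2 animals 20 genes were more positive and 4 more negative in HA.

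Most of the 133 genes rose in the tagged ribosomes. Within HA alone 99 of the 133 rose, 34 did not pass and 0 fell, where 18.7% of all genes tested in HA rose and 15.1% fell. Within IgG alone 15 of the 133 rose and 3 fell, where 4.43% of all genes rose and 1.03% fell, 97 did not pass and 18 held too few IgG counts to be tested. A rise in HA with no call in IgG was found for 70 genes and a rise in both for 15. The IgG T3 libraries held only 88136 to 248522 counts, so no call in IgG is not the absence of a rise there. For the 133 genes the median HA minus IgG difference was -0.43 at T0 and 1.48 at T3. The number higher in HA was 45 at T0 and 121 at T3. The split into directions depended on scaling, since TMM gave 133 and 25 genes, relative log expression (RLE) scaling 72 and 44, and scaling by total counts 51 and 101. The all-gene median was 0.18, 0.01 and -0.19 under these scalings, and 50 of the 133 genes and all 25 of the others passed in the same direction under each of the 3.

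**Figure D1:**
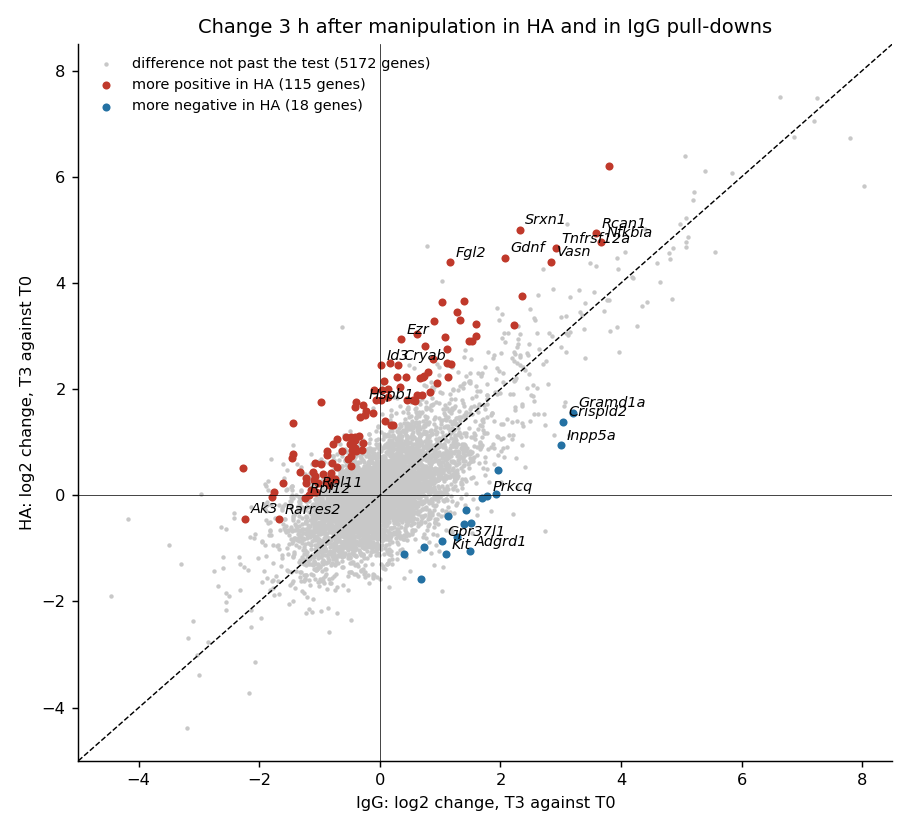
Each point is a gene tested in both pull-downs, with its log2 change from T0 to T3 in IgG on the x axis and in HA on the y axis (3 libraries per group). Genes whose change was more positive in HA (115 plotted) lie above the dashed line of equal change, mostly at HA values over 0, and genes more negative in HA (18 plotted) lie below it.

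The gene with the smallest p was Fgl2, a fibrinogen-like protein with membrane and secreted forms. Its level was 162, 91.7 and 77.3 CPM in HA T0, 2742, 2220.0 and 2016 CPM in HA T3, 209, 169 and 157 CPM in IgG T0 and 737, 198 and 210.2 CPM in IgG T3. HA was below IgG in each naive animal and above it in each animal at T3, with no overlap between HA T0 and HA T3 (log2 difference 3.59, SE 0.36, adjusted p = 2.1e-11, IgG T3 counts 76, 21 and 53). Fgl2 lies at chr5:21372642-21378374 on the plus strand (GRCm38).

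Ezr, which encodes ezrin, a linker of actin filaments to the plasma membrane, showed the same crossing. It was 62.1, 70.4 and 75.4 CPM in HA T0 and 478, 469 and 659 CPM in HA T3, while IgG held 81.4, 91.9 and 121 CPM at T0 and 87.3, 122 and 143 CPM at T3 (log2 difference 2.69, SE 0.35, adjusted p = 1.7e-07). Each HA T3 library was over every other library, and the IgG groups overlapped. An exon of Sytl3 on the other strand lies in the window counted for Ezr, and whether counting was stranded is not given in the sources used here.

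Srxn1, sulfiredoxin, which repairs oxidized peroxiredoxins, rose in both pull-downs and further in HA. HA libraries went from 80.2, 83.5 and 76.0 CPM to 2265, 2366 and 3104 CPM and IgG libraries from 58.5, 42.7 and 52.9 CPM to 368, 198 and 174 CPM. Both changes were separated without overlap, and the HA change exceeded the IgG change (log2 difference 2.82, SE 0.38, adjusted p = 2.2e-07).

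Id3, an inhibitor of basic helix-loop-helix transcription factors and a target of BMP signalling, was 83.7, 69.3 and 69.8 CPM in HA T0 and 336, 486 and 405 CPM in HA T3. IgG held 135, 117 and 106 CPM at T0 and 67.9, 151 and 119 CPM at T3, with overlap (log2 difference 2.54, SE 0.35, adjusted p = 4.8e-07). Sox4, a transcription factor of progenitor cells, had a difference of 2.36 (SE 0.33, adjusted p = 7.5e-07) with a rise in HA of 3.66 and in IgG of 1.39 (log2). Vasn, vasorin, a membrane protein that binds TGF-beta, rose by 4.40 in HA and 2.84 in IgG (log2 difference of the changes 1.76, adjusted p = 0.0032).

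Frmd4a, a scaffold of cell polarity, and Syt6, a synaptotagmin, were low in naive tissue. Frmd4a was 26.6, 20.2 and 26.6 CPM in HA T0 and 286, 320.0 and 333 CPM in HA T3, with IgG at 20.3, 32.8 and 25.7 CPM and then 38.8, 37.7 and 67.4 CPM. Both pull-downs rose without overlap, and every HA T3 library was over every IgG T3 library (log2 difference 2.73, SE 0.46, adjusted p = 7.8e-05). In IgG T3 animals 1 and 3 the Frmd4a level lay near the floor of 3 counts, which is 29.1 and 28.3 CPM there. For Pdxk, the kinase that makes pyridoxal phosphate, and Spata13, an exchange factor for small GTPases, HA T3 stood over the 3 other groups, which overlapped, with differences of 2.22 and 2.52 (adjusted p = 0.00018 and 0.00067). Exons of another gene overlap the counted window of Pdxk and Syt6, as they do for 23 of the 158 genes.

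**Figure D2:**
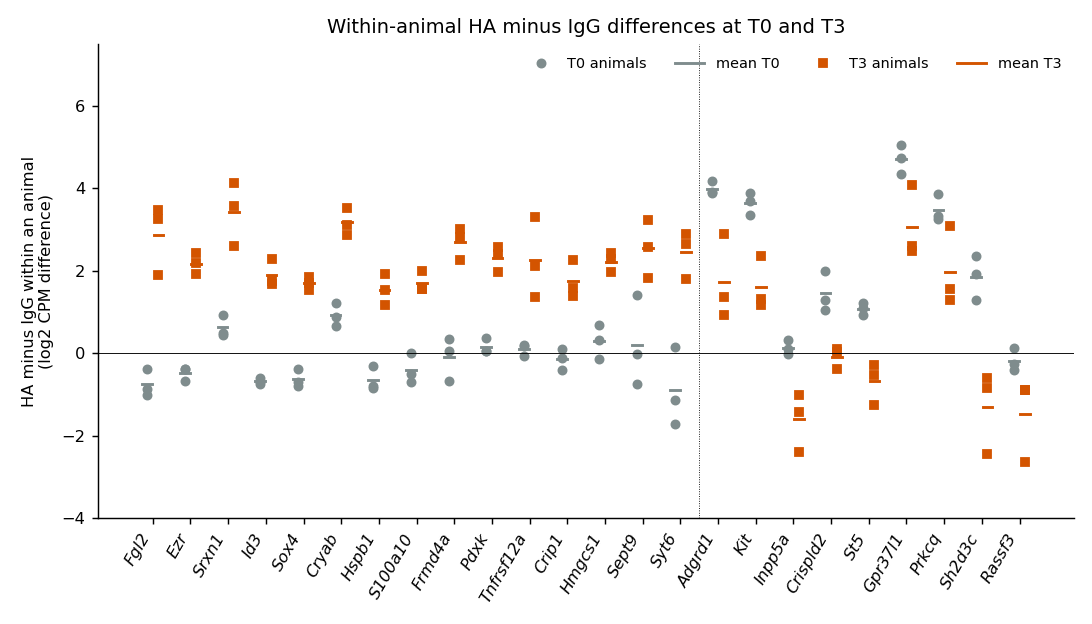
HA minus IgG difference (log2 CPM, prior count 2) within each animal for 15 genes more positive and 9 genes more negative in HA, ordered by p on each side of the dotted line, with grey circles for the 3 T0 animals, orange squares for the 3 T3 animals and short lines for their means. T0 and T3 animals do not overlap for any gene drawn, which was a condition for drawing them.

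Sequence upstream of the called genes was read from RefSeq promoters (GRCm38.p6, 250 bases before to 50 after the start), which matched 116 of the 158 genes and 7909 of the 10314 tested. The AP-1 letters TGACTCA or TGAGTCA, each the reverse complement of the other, were present in 15 of 97 promoters of genes more positive in HA (15.5%), in 1 of 19 of genes more negative in HA, and in 4.73% of all promoters matched. Of the 15 ribosomal protein promoters among the 97, 0 held them, which at 4.73% of all is no result about these 15. The antioxidant response letters TGACNNNGC on either strand were in 24 of 97 promoters (24.7%) and 17.0% of all, and in Prdx1 they shared bases with a further AP-1 match that lies outside the stretch printed here. The cAMP response letters TGACGTCA were in 6 of 97 (6.19%) and 3.64% of all. CCAAT on either strand was in 39 of 97 (40.2%) and 41.8% of all. The heat shock and sterol elements searched were in 0 of 97. They were in 0.683% and 0.164% of all, so a count of 0 is no result about them. A letter match is not a binding site, and these counts carry no test. Stretches of 8 of the matching promoters are printed to show the letters with the bases around them, 5′ to 3′ on the strand of the gene, with the AP-1 letters in capitals.
Fgl2, chr5:21372627-21372672, plus strand: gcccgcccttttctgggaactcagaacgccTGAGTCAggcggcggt
Ezr, chr17:6782781-6782842, minus strand: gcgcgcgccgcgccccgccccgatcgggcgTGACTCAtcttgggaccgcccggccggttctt
Srxn1, chr2:152105392-152105458, plus strand: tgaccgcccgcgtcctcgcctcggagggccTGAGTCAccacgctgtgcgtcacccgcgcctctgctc
Bag3, chr7:128523533-128523582, plus strand: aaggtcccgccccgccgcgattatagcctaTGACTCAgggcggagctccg
Prdx1, chr4:116685349-116685398, plus strand: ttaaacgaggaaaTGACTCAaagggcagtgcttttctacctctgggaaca
Rcan1, chr16:92400152-92400218, minus strand: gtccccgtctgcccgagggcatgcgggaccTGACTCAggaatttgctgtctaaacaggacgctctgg
Anxa2, chr9:69453558-69453624, plus strand: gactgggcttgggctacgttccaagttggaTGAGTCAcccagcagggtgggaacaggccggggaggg
S100a11, chr3:93520330-93520396, plus strand: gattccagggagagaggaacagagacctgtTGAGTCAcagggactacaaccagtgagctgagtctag

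Genes of the cytoskeleton and of reactive glia held the most calls among the injury lists. Of 34 tested, 8 were more positive in HA and 0 more negative, with a median difference of 0.87 against 0.18 over all genes (0.48 with total counts). The shares over all genes tested, for this list and those below, were 1.29% more positive and 0.242% more negative. At 0.242%, a count of 0 more negative is no result about any of these lists. With RLE 5 were called and with total counts 5. The 8 were Ezr, Timp1, Hspb1, Tubb6, Tuba1c, Actb, Tnfrsf12a and S100a10. Tnfrsf12a, the receptor of TWEAK, was 156, 128 and 46.8 CPM in HA T0 and 2432, 2948 and 2987 CPM in HA T3, against 137, 109.9 and 49.1 CPM in IgG T0 and 242, 1140.0 and 690.0 CPM in IgG T3. HA and IgG overlapped in naive tissue, and every HA T3 library exceeded every IgG T3 library (log2 difference 2.07, SE 0.36, adjusted p = 0.00018). S100a10, the partner of annexin A2, had a difference of 2.14 (adjusted p = 5.5e-06), and Anxa2 itself one of 1.38 (adjusted p = 0.021). Timp1, an inhibitor of matrix metalloproteinases, differed by 2.19 and the beta-tubulin gene Tubb6 by 1.63 (adjusted p = 0.037 and 0.00058). Without T0 animal 4 the difference of Timp1 was 0.80 (adjusted p = 0.90), and it missed the threshold without T3 animal 1 or 3 as well and under both other scalings.

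Small heat shock proteins and their partners formed another group. Of 19 heat shock chaperones, 4 were more positive in HA (Hspb1, Cryab, Hsp90aa1 and Bag3) and 0 more negative, with a median of 0.67 (0.28 with total counts, and 4 called). Cryab, alpha B-crystallin, also a marker of EGCs, was 1423, 1075 and 1237 CPM in HA T0 and 7277, 6459 and 6870.5 CPM in HA T3, and IgG held 610.3, 578 and 774 CPM at T0 and 834, 876 and 591 CPM at T3. Every HA library exceeded every IgG library at both times, and the gap widened (log2 difference 2.26, SE 0.33, adjusted p = 2.6e-06). Hspb1, a small chaperone that binds actin, was below IgG in each naive animal at -0.30, -0.79 and -0.85 and above it in each T3 animal at 1.92, 1.54 and 1.17 (HA minus IgG, log2). Bag3, the co-chaperone that binds HSP70 and the small heat shock proteins, rose by 2.91 in HA and 1.47 in IgG (difference of the changes 1.54, adjusted p = 0.0017).

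Of 18 NRF2 and metallothionein genes, 3 were more positive in HA. They were Srxn1, Prdx1, the peroxiredoxin that Srxn1 restores, and Mafg, a small Maf protein that pairs with NRF2, with differences of 2.06 for Prdx1 and 1.81 for Mafg (adjusted p = 0.019 and 0.0074), and the list median was 0.59 (0.22 with total counts). With RLE 3 of the 18 were more positive and 1 more negative in HA, and with total counts 2 and 1. IgG T3 animal 3 held 0 counts of Prdx1. Of 18 p53 and GADD45 genes, 2 were called: Gadd45a, a DNA damage-inducible stress gene, at 1.84, and Phlda3, a p53-induced repressor of AKT signalling, at 1.95 (adjusted p = 0.013 and 0.00026). The p53 list median was 0.22 and was -0.15 with total counts. With RLE 2 of its members were more positive and 0 more negative in HA, and with total counts 1 and 1.

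Cholesterol synthesis formed a further group. Of 22 genes, 4 were more positive in HA and 0 more negative, among them Hmgcs1, the synthase that makes HMG-CoA, Fdps, which makes farnesyl diphosphate, and Msmo1, a sterol oxidase. Hmgcs1 was 192, 166 and 157 CPM in HA T0 and 738, 653 and 687 CPM in HA T3, and IgG held 211, 102 and 124 CPM at T0 and 136, 132 and 174 CPM at T3. HA T3 was above all 9 other libraries and the other groups overlapped (log2 difference 1.90, SE 0.34, adjusted p = 0.00018). The differences of Fdps and Msmo1 were 1.64 and 1.57 (adjusted p = 0.0099 and 0.024). In HA 12 of the 22 genes rose, against 18.7% of all genes tested there. In IgG 0 of 10 did, which is near the 4.43% of all genes. With RLE 3 of the 22 were more positive in HA and with total counts 1. The list median was 0.89 (0.53 with total counts), and 0.14 where genes at the floor of 3 counts in a group were set at that floor. The summed CPM of the list was 1257, 1059 and 924 in HA T0, 2611, 2576 and 2553 in HA T3, 943, 615 and 635 in IgG T0 and 844, 688 and 761 in IgG T3, with HA T3 above all others.

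Among secreted factors, Gdnf, the glial ligand of GFR alpha 1 and RET, was 14.7, 12.5 and 16.6 CPM in HA T0 and 249, 301 and 447 CPM in HA T3. IgG held 10.2, 9.85 and 14.4 CPM at T0 and 67.9, 47.1 and 39.7 CPM at T3, on counts of 7, 5 and 10. Both pull-downs rose without overlap and HA rose further (log2 difference 2.51, SE 0.54, adjusted p = 0.0034), but without T3 animal 4 the difference was 1.97 with an adjusted p of 0.080, and without T0 animal 4 it was 2.36 with an adjusted p of 0.088. Mmp19, a matrix metalloproteinase, differed by 2.79 (adjusted p = 0.028) and missed the threshold under RLE and total counts.

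All 10 factors that the study discussed rose in HA, where 18.7% of all genes tested rose. In IgG 5 of the 8 tested rose, against 4.43% of all genes. Of the 10, 2 were more positive in HA, Gdnf among them (1 with RLE or total counts), with a list median of 0.37 that became -0.01 with total counts. Ccl2, the monocyte chemokine, went from 39.3, 10.4 and 14.6 CPM to 1045, 1811 and 916 CPM in HA and reached 553, 386 and 266 CPM in IgG T3, from IgG T0 counts of 1, 1 and 1 that lie under the floor of 3 counts. As fitted, its difference of changes was -2.01 and did not pass (adjusted p = 0.14). With total counts it was -2.41 and passed (adjusted p = 0.037). With IgG T0 under the floor the size of the IgG rise is not known, so no direction is given for Ccl2. Gdf15, a stress cytokine, went from 5.01, 3.82 and 3.90 CPM to 369.6, 287 and 259 CPM in HA and held counts of 1, 0 and 2 in IgG T0 and 2, 2 and 2 in IgG T3. With both IgG groups under the floor, no difference between the pull-downs is given for it. The study drew on these samples in discussing these factors, so the list is not independent evidence of a direction. It also reported higher Ccl2 and Csf1 mRNA in isolated enteric ganglia early after injury, and CCL2 staining in GFAP-positive EGCs.

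Most immediate early genes rose in both pull-downs. In HA 31 of 32 tested rose, against 18.7% of all genes tested there, and in IgG 20 of 24, against 4.43%. Between the pull-downs 2 of 33 differed, Ier3 at 1.48 and Ier5l at 2.31 (adjusted p = 0.0049 and 0.002). The list median was 0.52 (0.14 with total counts). Of 22 NF-kB genes 2 were more positive in HA and 0 more negative. With RLE these counts were 1 and 1, and with total counts 0 and 1. Nfkbia, the inhibitor IkB alpha, rose by 4.76 in HA and 3.66 in IgG with a difference of 1.17, and Nfkbiz, a nuclear IkB protein, differed by 1.99 (adjusted p = 0.042 and 0.019), while the list median was -0.14 and neither passed with total counts. Rcan1, an inhibitor of calcineurin, rose by 4.94 in HA and 3.59 in IgG (difference 1.49, adjusted p = 0.02). Of 17 IL-6 and JAK-STAT genes Pim1, a STAT-induced kinase, was called (1.69, adjusted p = 0.0044). Of the 17 genes in the MAPK feedback list only Phlda3 was called, the same gene as in the p53 list. With total counts the MAPK feedback list had 1 gene more positive and 1 more negative in HA.

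Interferon response genes had a list median of 0.96, with 22 of 24 above 0 and 2 called. With total counts the median was 0.58, with 15 above 0 and 1 called. Isg15, a ubiquitin-like interferon-induced protein, was 96.0, 80.8 and 112 CPM in HA T0, 765, 742 and 797 CPM in HA T3, 38.1, 41.0 and 24.2 CPM in IgG T0 and 136, 28.3 and 47.6 CPM in IgG T3. HA T3 was above all other libraries, while IgG T3 overlapped IgG T0 (log2 difference 2.03, SE 0.44, adjusted p = 0.0044). Isg15 missed the threshold without T0 animal 2 or T3 animal 4. Gbp2, a guanylate-binding protein, differed by 1.64 (adjusted p = 0.023), and passed in 4 of 17 alternatives. With genes at the floor set there, the interferon median was 0.47. No member was called among 17 chemokines (median -0.08), 23 integrated stress response genes (0.50), 37 nucleolar genes (0.70), 19 glucocorticoid and clock genes (0.27) or 16 sphingosine and prostaglandin genes (0.35). Over all genes tested 1.29% were more positive and 0.242% more negative in HA, so a count of 0 is no result about these lists. With total counts 1 of the chemokines was more negative in HA.

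**Figure D3:**
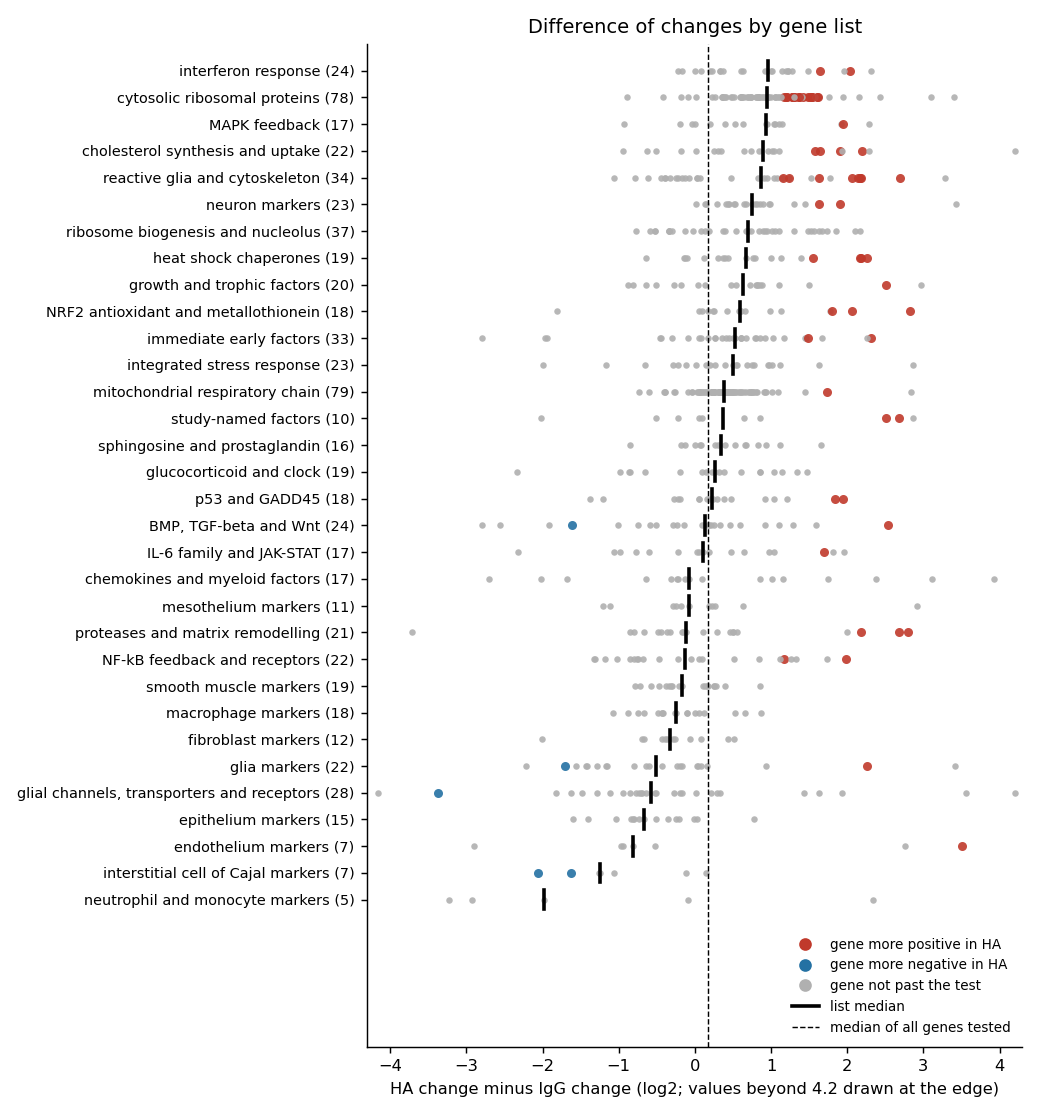
Difference between the HA change and the IgG change (log2) for every tested member of 32 gene lists, number tested in brackets, as fitted (also for genes at the floor), with the list median as a black bar, the all-gene median of 0.18 as a dashed line, and called genes in red (more positive in HA) or blue (more negative in HA). Of 78 ribosomal protein genes 74 lie above 0, and the 7 interstitial cell of Cajal markers lie to the left of the dashed line.

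Cytosolic ribosomal protein genes shifted together. Of 78 tested, 16 were more positive in HA and 0 more negative, 74 lay above 0 (67 with total counts), and the median was 0.95 (0.78 with RLE and 5 called, 0.56 with total counts and 4 called). Their median change was 0.20 in HA and -0.57 in IgG. The summed CPM was 89411, 85360 and 68646 in HA T0 and 90140, 92251 and 96982 in HA T3. It was 116370, 105200 and 150610 in IgG T0 and 62086, 66046 and 114420 in IgG T3, where animals 1 and 3 were below and animal 4 within the IgG T0 range. Rpl24, a protein of the large subunit, had the smallest p of the list, at 636, 484 and 416 CPM in HA T0, 1024, 778 and 966 CPM in HA T3, 664, 665 and 949 CPM in IgG T0 and 320.0, 358 and 702 CPM in IgG T3. HA rose without overlap, and the IgG groups overlapped (log2 difference 1.61, SE 0.34, adjusted p = 0.0025). Without T3 animals 1 and 3 the difference of Rpl24 was 0.93 with an adjusted p of 0.49. Genes of the mitochondrial respiratory chain had 1 call of 79 (Uqcrb, a subunit of complex III) and a median of 0.38, which was 0.00 with total counts. Ribosomal protein genes have many processed copies, so their counts are uncertain.

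Of the 23 neuron markers tested, 23 lay above 0 (19 with total counts), with a median of 0.75 (0.38 with total counts) and 2 called. Gap43, a growth cone protein, was 135, 104 and 131 CPM in HA T0 and 317, 368 and 355 CPM in HA T3, and IgG held 193, 148 and 160.2 CPM at T0 and 116, 75.4 and 171 CPM at T3. HA rose without overlap, and the IgG groups overlapped (log2 difference 1.90, SE 0.35, adjusted p = 0.00023). Tubb3, neuronal beta-tubulin, differed by 1.62 (adjusted p = 0.0038). The median HA minus IgG difference of neuron markers was -0.94 at T0 and 0.08 at T3. Their summed CPM was 3623, 4106 and 4558 in HA T0, 5310, 4974 and 7775 in HA T3, 6973, 3897 and 5956 in IgG T0 and 5585, 3260 and 6075 in IgG T3, so HA T3 lay above HA T0 and IgG T3 overlapped IgG T0. The part of neuronal RNA in the other differences was not tested.

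**Figure D4:**
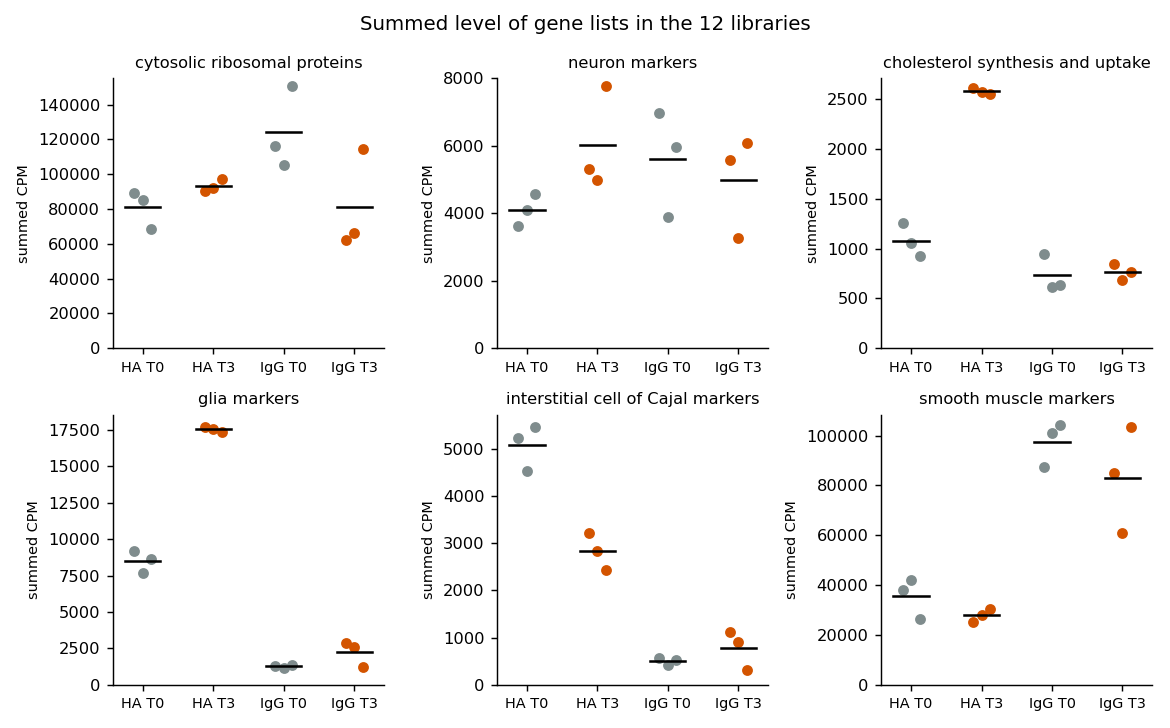
Summed CPM of 6 gene lists in each of the 12 libraries (points, grey for T0 and orange for T3, animals in the order of their numbers) with the mean of 3 libraries as a bar, each y axis starting at 0. HA T3 lies above the other groups for cholesterol synthesis, and IgG T3 animals 1 and 3 lie above IgG T0 for glia and interstitial cell of Cajal markers.

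Markers of ICC were the list with the lowest median among those with a call. The 7 markers tested had a median HA minus IgG difference of 3.41 at T0 and 1.96 at T3, and a median difference of changes of -1.25 with 2 called (4 with RLE or total counts). Kit, the receptor tyrosine kinase that defines ICC, was 914, 953 and 958 CPM in HA T0 and 535, 447 and 335 CPM in HA T3, with no overlap. In IgG it was 68.7, 91.9 and 63.5 CPM at T0 and 213, 198 and 63.4 CPM at T3 in animals 1, 3 and 4 (log2 difference -2.06, SE 0.37, adjusted p = 0.00018). Prkcq, protein kinase C theta, had a change of -0.02 in HA (adjusted p = 0.96) and stood at 45.8, 37.7 and 43.1 CPM in IgG T0 and 223, 169.6 and 47.6 CPM in IgG T3 (log2 difference -1.62, SE 0.39, adjusted p = 0.013). For both genes IgG T3 animals 1 and 3 were above every IgG T0 library and animal 4 was near them.

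The same split between the IgG T3 libraries was found for other genes among the 25. Gpr37l1, an orphan receptor of glia, fell in HA from 1883, 1529 and 1612 CPM to 775, 1221 and 773 CPM, and IgG held 68.7, 73.8 and 46.9 CPM at T0 and 126, 217 and 43.6 CPM at T3 (log2 difference -1.71, SE 0.40, adjusted p = 0.0099). Adgrd1, an adhesion G protein-coupled receptor, had the smallest p on this side, with HA at 1031, 1404 and 1337 CPM and then 731, 554 and 548 CPM and IgG at 66.1, 93.5 and 71.8 CPM and then 281, 292 and 71.4 CPM (log2 difference -2.33, SE 0.38, adjusted p = 4.7e-05). HA fell without overlap for both genes. IgG T3 animals 1 and 3 exceeded animal 4 for 12 of the 25 genes, where 23.2% of all genes tested had that order. Without both of these animals the differences were -1.21 for Adgrd1, -1.39 for Kit, -0.72 for Gpr37l1 and -0.57 for Prkcq, with adjusted p of 0.44, 0.34, 0.72 and 0.77, on 1 remaining T3 animal assumed to vary like the others. Without either alone, Gpr37l1 (adjusted p = 0.099 without animal 1 and 0.14 without animal 3) and Prkcq (0.16 and 0.092) missed the threshold while Kit and Adgrd1 passed.

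Of the other genes more negative in HA, Edn3, the ligand of endothelin receptor B, had a difference of -1.92 (adjusted p = 0.023) with overlap between T0 and T3 animals, and Dkk2, a secreted Wnt modulator, one of -1.61 (adjusted p = 0.04), also with overlap. Without T3 animals 1 and 3 the difference of Edn3 was -0.02 and that of Dkk2 -0.56 (adjusted p = 1 and 0.81). Edn3 missed the threshold without either alone (adjusted p = 0.25 and 0.23), and so did Dkk2 (0.17 and 0.36). Kcnj10, the glial potassium channel Kir4.1, was in HA at 110.3, 117 and 115 CPM and then 97.6, 105 and 74.2 CPM, while IgG T0 held at most 3 counts in each library. Its IgG T3 counts were 6, 1 and 1, so 1 library alone held more than 3, and the difference with IgG T0 set at the floor was -2.58. It missed the threshold without T3 animal 1 (adjusted p = 0.66) and without T0 animal 4 (0.15). Within HA alone 13 of the 25 genes fell and 3 rose, where 15.1% of all genes tested fell and 18.7% rose. Another 7 did not pass and 2 held too few HA counts to be tested. Within IgG alone 3 of the 25 rose, against 4.43% of all genes, 15 did not pass and 7 held too few counts.

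A separate set of 3 genes rose in both pull-downs and further in IgG. Inpp5a, an inositol phosphate 5-phosphatase, was 579, 760.0 and 587 CPM in HA T0, 1044, 1055 and 1631 CPM in HA T3, 463, 761 and 544 CPM in IgG T0 and 2085, 2808 and 8554 CPM in IgG T3. HA and IgG overlapped in naive tissue, and each IgG T3 library exceeded every HA T3 library (log2 difference -1.75, SE 0.33, adjusted p = 0.00054). IgG T3 animal 4 was the highest, and without animals 1 and 3 the difference was -2.64, on 1 remaining T3 animal. Inpp5a missed the threshold in the fit without the animal as a block (adjusted p = 0.246). Crispld2, a secreted protein, rose by 1.38 in HA and 3.04 in IgG (difference -1.51, adjusted p = 0.0041), and Gramd1a, a sterol transfer protein, by 1.56 and 3.20 (difference -1.40, adjusted p = 0.034). Crispld2 missed the threshold after all libraries were thinned to the depth of the shallowest. An exon of Nkx6-2 on the other strand lies in the window counted for Inpp5a.

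Of the 22 glia markers tested, 2 were called, Cryab more positive and Gpr37l1 more negative in HA, where 1.29% and 0.242% of all genes tested were. Of the 22, 7 lay above 0 (3 with total counts), and the median was -0.52 (-0.91 with total counts). Gfap, the intermediate filament of reactive glia, rose by 4.12 in HA and 4.18 in IgG (log2). Its level was 130.4, 93.3 and 121 CPM in HA T0 and 1754, 1970.2 and 2333 CPM in HA T3, and 2.54, 6.56 and 6.80 CPM in IgG T0 and 97.0, 122 and 99.1 CPM in IgG T3, without overlap in either pull-down. The difference of its changes was 0.02, with within-animal values of 4.94, 3.51 and 3.84 at T0 and 4.15, 3.99 and 4.53 at T3 that overlapped. Its sign turned under RLE (-0.14) and total counts (-0.37). Sox10, the glial transcription factor, differed by -1.17 (SE 0.50, adjusted p = 0.29), passed without T3 animal 4 (-1.96, adjusted p = 0.041) and was at -0.04 without T3 animals 1 and 3. The 28 glial channels, transporters and receptors had a median of -0.58 and 1 call, Kcnj10 (2 with RLE and 3 with total counts, all more negative in HA).

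Among markers of other cell types, no gene was called of 19 smooth muscle (median -0.17), 12 fibroblast (-0.32), 11 mesothelium (-0.08), 18 macrophage (-0.25), 5 neutrophil and monocyte (-1.98) or 15 epithelium markers (-0.66). At the shares called over all genes, 1.29% and 0.242%, a count of 0 is no result about lists of this size. Of 7 endothelium markers Cldn5, the tight junction protein claudin 5, was called, with IgG T3 counts at or under 3 in each library, no call under RLE or total counts and a difference of at least 1.28 (log2) with the floor. The summed neutrophil and monocyte level was 15.0, 15.8 and 6.50 CPM in HA T0, 147, 29.2 and 39.9 in HA T3, 38.1, 37.7 and 27.2 in IgG T0 and 281, 56.5 and 123 in IgG T3, over these 5 genes, of 13 listed.

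Of the 158 genes, 14 had a group in which no library held more than 3 counts, and for these only a bound can be given. In 11 of them the group was IgG T3. Against the floor, Cdk5r1, the activator of CDK5, differed by at least 2.92, Snx10, a sorting nexin, by at least 2.52 and Adarb1, an RNA-editing deaminase, by at least 1.75 (log2). Pomc, the precursor of ACTH, had HA T3 at the floor and stood at 29.1, 18.8 and 15.9 CPM in IgG T3 on counts of 3, 2 and 4.

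**Figure D5:**
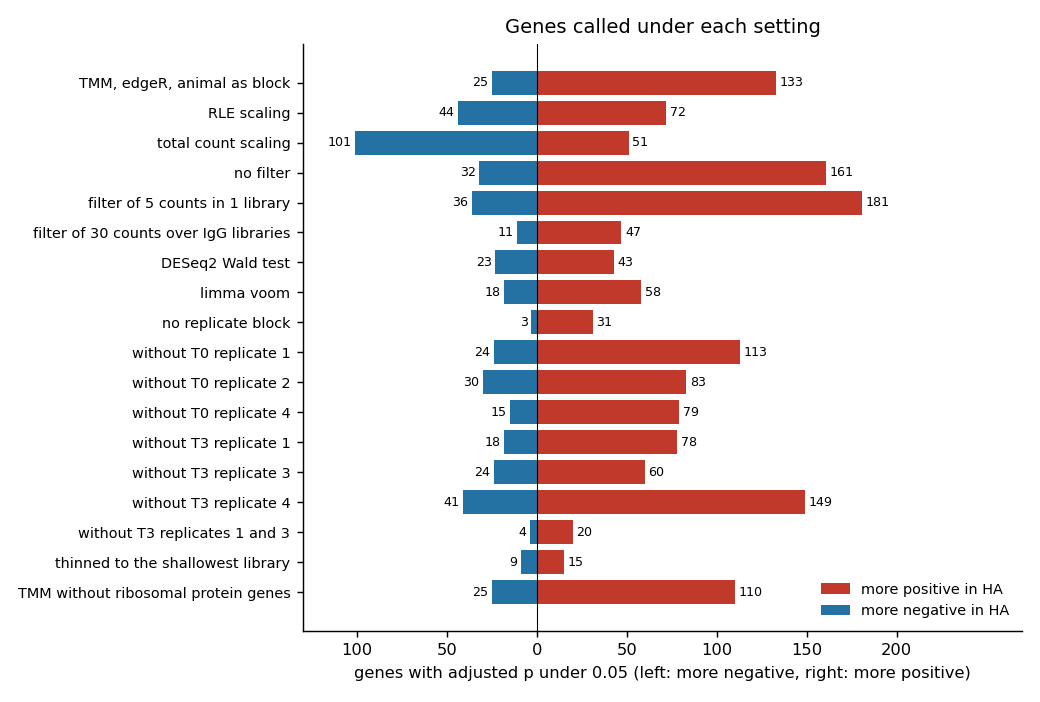
Number of genes with an adjusted p under 0.05 for the difference of changes under each setting, more negative in HA to the left and more positive in HA to the right. TMM scaling with the animal as a block gives 25 and 133, total count scaling 101 and 51, and a fit without the animal as a block 3 and 31.

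The call and direction held in all 17 alternatives for 8 genes, each more positive in HA: Fgl2, Ezr, Srxn1, Id3, Sox4, Cryab, S100a10 and Pdxk. They held for Spata13 in the 16 that tested it, thinning having left it with too few counts. Leaving out 1 animal at a time gave 84 to 190 genes. The count was 94 without T0 animal 4, 96 without T3 animal 1 and 84 without T3 animal 3, and 35 of the 158 genes passed in each of these 6 fits, among them Adgrd1, Kit, Inpp5a and Crispld2 on the negative side. The other 123 missed the threshold in at least 1 of these fits. Of the genes named here, Rcan1, Gbp2, Mmp19, Actb, Tuba1c, Nfkbia and Cldn5 passed in 1 of the 6 and Msmo1 in 2. Those that passed in 3 were Anxa2, Timp1, S100a11, Uqcrb, Gramd1a, Dkk2, Prkcq and Pomc.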

How the data were processed

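RNA counts were deposited as whole numbers in 12 columns, one for each of the 12 libraries, and counts from the authors carried no normalization. Per the labels, a bulk MARS-seq protocol with UMIs was used, reads were trimmed (cutadapt), mapped to mm10 (STAR 2.4.2a) and counted (HTSeq) near annotated 3′ ends, from 1000 bases before to 100 bases after each end. The submitters' processing notes also list DESeq2 1.26.0. The stated minimum of 5 reads in a sample was not met by 189 genes. Values of the series table and of the single files differed in 0 cases. A count of 0 allows up to 3 counts, on average 1.26 CPM in HA T0, 2.66 in HA T3, 4.94 in IgG T0 and 23.1 in IgG T3, for counting error only.

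The difference of differences was tested with edgeR 4.0.16 in R 4.3.3 (quasi-likelihood F-test, robust, TMM, filterByExpr, Benjamini-Hochberg over all genes tested, threshold 0.05). The animal was a block, leaving 4 residual degrees of freedom, because HA and IgG libraries of 1 animal came from the same homogenate. Deviations of such pairs from their group means correlated at 0.268, 0.269 and 0.273 for T0 animals and 0.162, 0.153 and 0.0887 for T3 animals. Changes within HA and within IgG were fitted on 6 libraries each. SEs were derived from the F statistic. The procedure was tested on simulated counts. Gene positions came from GENCODE M21 (GRCm38).

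The comparison and gene lists were chosen with earlier results of these data known. Genes were named if called with a log2 difference of at least 1 in size and no overlap of within-animal differences (25 smallest p more positive in HA, 15 more negative), if called in a list, or from the glia and study-factor lists. Vasn, Rcan1, Anxa2, S100a11, Edn3, Gramd1a, Snx10, Adarb1 and Eif3e fell outside this rule and were named after their values were seen. Alternatives were RLE and total count scaling, 3 filters, DESeq2 1.42.0, limma 3.58.1 voom, no block, and each animal left out. Leaving out both T3 animals with the shallowest IgG libraries, thinning to the shallowest library and TMM without ribosomal protein genes were chosen after seeing the data. Some called genes are not reported here.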

Additional observations from a re-analysis of the deposited data

Results flagged for a closer look

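The change from T0 to T3 differed between the HA and IgG pull-downs for 158 genes by the edgeR quasi-likelihood test of the difference itself.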

How the results depend on the processing

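The count of 158 genes (133 more positive and 25 more negative in HA) was 34 (31 and 3) without the animal as a replicate block, which is the pairing of HA and IgG libraries. RLE scaling gave 116 (72 and 44), total count scaling 152 (51 and 101), no filter 193 (161 and 32), a filter of 5 counts in 1 library 217 (181 and 36) and a filter of 30 counts over the IgG libraries 58 (47 and 11). DESeq2 gave 66 (43 and 23) and limma voom 76 (58 and 18). Leaving out 1 animal gave 84 to 190 in all, 60 to 149 more positive and 15 to 41 more negative. Among alternatives chosen after seeing the data, leaving out T3 animals 1 and 3 gave 24 (20 and 4), thinning to the shallowest library 24 (15 and 9) and TMM without ribosomal protein genes 135 (110 and 25). The causes were not tested. The count for HA alone (3187) stayed within 1.5 times under every alternative run. That for IgG alone (285) was 519 without a filter, 705 in a fit of all 12 libraries and 162 to 334 without 1 library (162 without IgG T0 animal 2, 167 without IgG T0 animal 4, 181 without IgG T3 animal 4). Of the 158 genes, Eif3e alone turned in sign, at -0.19 after thinning. Gfap, which was not called, turned to -0.14 with RLE, -0.37 with total counts, -0.12 with the IgG filter, -0.19 with DESeq2 and -0.91 after thinning, and leaving out 1 animal gave -0.22 to 0.23. The IgG T3 libraries, with 88136 to 248522 counts, are the shallowest, and 11 of the 158 genes held at most 3 counts in each of them.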
